A study of Danio rerio with 6 samples.

Results

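The genes described here are 5 of the 326 gene assays on a zebrafish immune PCR array, found by their symbols in the plate layout: the NOD-like receptor genes NLRC5, NLRX1 and NLRP, the inflammasome adaptor PYCARD and the inflammasome protease CASP1. The array was run on whole embryos of the zebrafish (Danio rerio), 24 hours post fertilization, 3 plates from embryos injected with the plasmid ptGFP1-NOD1 (the NOD1 group) and 3 from embryos injected with the parent plasmid ptGFP1 (the control group). Both groups therefore carried ptGFP1, and they differed in the NOD1 insert. The labels' protocols put the embryos extracted at 150 to 200 for each group, as an average. The promoter that drives the insert, the cells that carried the plasmid and the spawnings behind the replicates are not stated in the labels. The p-values therefore rest on differences between these 3 samples per group, which may be technical.

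NOD-like receptors (NLRs) are intracellular proteins with a nucleotide-binding domain and leucine-rich repeats that sense microbial products or cell damage, or regulate other immune pathways. In an inflammasome, a sensor NLR recruits the adaptor PYCARD (also called ASC), which gathers caspase-1, and the activated caspase cleaves the precursor of interleukin-1 beta. NLRC5 and NLRX1 are known mainly from mammals as regulators. There NLRC5 is induced by interferon-gamma and activates MHC class I genes, and NLRX1 is a mitochondrial protein reported to restrain signalling through MAVS and TRAF6. The zebrafish counterpart of CASP1, Caspa, carries a pyrin domain of the kind found in PYCARD.

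Against a RefSeq gene table of assembly GRCz12tu, the NLRX1 assay matched nlrx1 on chromosome 15 and the PYCARD assay matched pycard on chromosome 16 by their plate accessions. The NLRC5 assay matched nlrc5 on chromosome 18 by symbol. The CASP1 assay matched caspa on chromosome 16 by a synonym. In that assembly, a count of annotated genes lying wholly between the end of pycard and the start of caspa gave 0. The count did not check their order, so it does not settle whether they are neighbours. The NLRP well has no accession and was not matched. The table holds 5 genes whose symbols begin with nlrp, and the labels do not say which transcript this assay amplifies.

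A threshold cycle (Ct) is the cycle at which a well's fluorescence crosses a set threshold, so an abundant transcript has a low Ct and 1 cycle is about a doubling. Each gene's relative level is how many cycles it came after the average of 3 reference genes on its plate (ACTB, GAPDH, Tuba1), with the sign turned so that a larger value means more transcript. This behaves like a log2 scale. Per plate, 314 to 321 of the 326 gene wells had a Ct under the ceiling of 35 cycles. All 30 member wells were among them, and all 5 members entered the fit of 319 genes. The mean Ct of the reference genes was 18.22, 18.39 and 18.20 in the NOD1 plates and 17.61, 17.75 and 17.48 in the control plates, 0.655 cycles later in NOD1 (two-sided exact permutation p = 0.1, as low as 3 plates against 3 allow). Taken singly, ACTB, GAPDH and Tuba1 were 0.472, 0.867 and 0.626 cycles later in NOD1 plates. The 18S rRNA well, added to the references in a scaling used below, was itself 2.604 cycles later (limma on raw Ct, adjusted p = 2.35e-04). The wells labelled RTC were 0.322 cycles later in NOD1 plates and those labelled PPC 0.099 cycles later (exact permutation p = 0.2 and 0.6). The injected gene nod1 had relative levels of -3.20, -1.49 and -2.26 in the NOD1 plates against -10.81, -10.94 and -10.97 in the control plates, by an assay that does not separate plasmid-borne from endogenous nod1. The NOD1 plates were run on 1 day and the control plates on 2 earlier days, which means that the day of the run and the group cannot be told apart for any value below.

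The 5 genes did not move together. Relative to the reference genes, NLRC5 and NLRP were higher in NOD1 embryos, NLRX1 was lower, and PYCARD and CASP1 did not pass the test (limma, adjusted p under 0.05 over the 319 genes). Of all genes tested, 37.0% were called higher and 15.4% lower, so 2 higher and 1 lower among 5 is close to the share on the whole plate. The 3 genes that passed are also the 3 whose groups did not overlap, where 63.9% of all genes did not overlap. On raw Ct, 4 of the 5 did not overlap, with NLRC5 earlier and NLRX1, PYCARD and CASP1 later in NOD1 plates, where 70.8% of all genes did not overlap. The median difference of the 5 members was 0.12 on the log2 scale, beside 0.32 for all 319 genes.

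**Figure D1:**
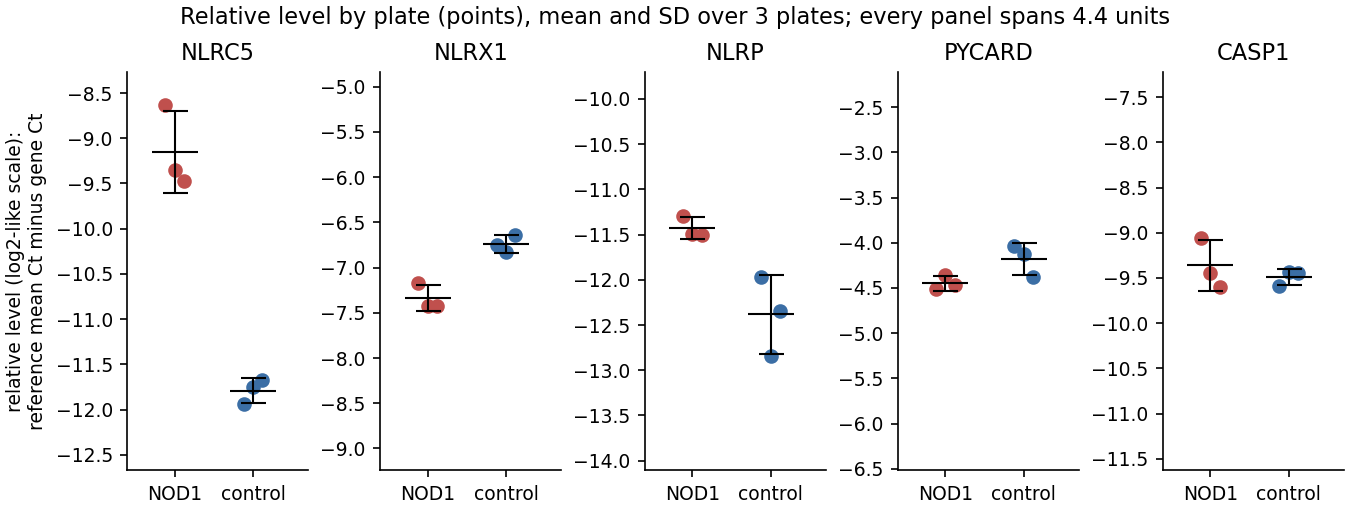
Relative level (log2-like scale, reference mean Ct minus gene Ct) of the 5 genes in each of the 3 NOD1 plates (left, red) and 3 control plates (right, blue), with mean and SD as black bars. NLRC5 lies near -9.15 in NOD1 and -11.79 in control plates, the widest gap of the 5 panels, while the points of PYCARD and of CASP1 overlap between the groups.

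NLRC5, which in mammals switches on MHC class I genes after interferon, had the largest difference of the 5. Its Ct was 26.85, 27.73 and 27.67 in the NOD1 plates and 29.55, 29.51 and 29.15 in the control plates. The relative levels were -8.63, -9.35 and -9.47 in NOD1 and -11.94, -11.75 and -11.67 in control. Every NOD1 plate thus stood more than 2 units above every control plate, with NOD1 replicate 1 the highest. The level averaged -9.15 ± 0.451 in NOD1 and -11.79 ± 0.135 in control embryos (SD, n = 3 each), a difference of 2.64 ± 0.25 (SE) or 6.22-fold (limma adjusted p = 9.7e-04, 95% interval 2.026 to 3.247). In whole embryos, a change in the number of cells of a type and a change in RNA per cell cannot be told apart. This holds for NLRC5 and for every later difference. NLRC5 had the 21st highest difference among the 319 genes. Leaving out any plate gave 2.38 to 2.80, with an adjusted p of 0.00597 at most.

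NLRX1, the mitochondrial NLR, was lower in NOD1 embryos. The Ct was 25.39, 25.82 and 25.63 in NOD1 plates and 24.36, 24.59 and 24.12 in control plates. On the relative scale these were -7.17, -7.43 and -7.42 in NOD1 and -6.75, -6.83 and -6.64 in control, so the groups were separate by less than 0.5 units at their nearest. The mean was -7.34 ± 0.144 in NOD1 and -6.74 ± 0.097 in control (SD, n = 3 each). NLRX1 fell by 0.60 ± 0.13 (SE) on the log2 scale, to 66.0% of the control level (limma adjusted p = 0.0114). Of the 319 differences it ranked 276th from the highest. The call held without any 1 plate (adjusted p = 0.00961 to 0.0489), and was lost with 18S rRNA added to the references (-0.11) or GAPDH as the only one (-0.39).

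NLRP, an assay named for the pyrin-domain subfamily of NLRs that holds inflammasome sensors in mammals, was the latest of the 5 assays. The Ct was 29.51, 29.88 and 29.71 in NOD1 plates and 29.58, 30.60 and 29.82 in control plates. Before scaling, the groups therefore overlapped, with control replicates 1 and 3 inside the NOD1 range. The relative levels were -11.29, -11.49 and -11.51 in NOD1 and -11.97, -12.84 and -12.34 in control, where they no longer did. NLRP was 0.95 ± 0.24 (SE) higher, or 1.94-fold (limma adjusted p = 0.0192), with an SD of 0.123 in NOD1 and 0.438 in control. It no longer passed when 1 of 3 plates was left out: NOD1 replicate 1 (adjusted p = 0.0622), NOD1 replicate 2 (0.0521) and control replicate 3 (0.0527). Its direction also turned with the scaling, to -0.37 with quantile and -0.32 with cyclic loess scaling, neither past the threshold.

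PYCARD, the adaptor that links pyrin-domain sensors to caspase-1, was the earliest of the 5 assays. Its Ct was 22.73, 22.74 and 22.68 in NOD1 plates and 21.65, 21.87 and 21.86 in control plates, a raw delay of 0.922 cycles in NOD1 with no overlap. The reference genes were 0.655 cycles later in the same plates. The relative levels were -4.51, -4.36 and -4.47 in NOD1 against -4.04, -4.12 and -4.38 in control, and here control replicate 3 lay below NOD1 replicate 2. The difference was -0.27 ± 0.14 (SE), or 83.1% of the control level (limma adjusted p = 0.152). Its 95% interval, -0.601 to 0.068, includes a fall as large as that of NLRX1.

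CASP1, the assay for the caspase that PYCARD recruits, had a Ct of 27.27, 27.82 and 27.80 in NOD1 plates and 27.20, 27.18 and 26.92 in control plates. The relative levels were -9.06, -9.44 and -9.60 in NOD1 and -9.59, -9.43 and -9.44 in control. All 3 control plates sat inside the NOD1 range. The difference was 0.12 ± 0.17 (SE) or 1.09-fold (limma adjusted p = 0.564, 95% interval -0.305 to 0.546). Without NOD1 replicate 1 it was -0.033. The call and the direction depended on the scaling: CASP1 was higher with 18S rRNA added (0.61, adjusted p = 0.0289), lower with quantile scaling (-0.74, adjusted p = 0.0479), and below 0 under 5 more scalings where it did not pass.

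NOD1 replicate 1 was the highest NOD1 plate for 4 of the 5 members, all but PYCARD, while it was the highest for 15.4% of the 319 genes. It was also the plate with the lowest nod1 level of the NOD1 group. With 3 plates this is a description of these samples.

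**Figure D2:**
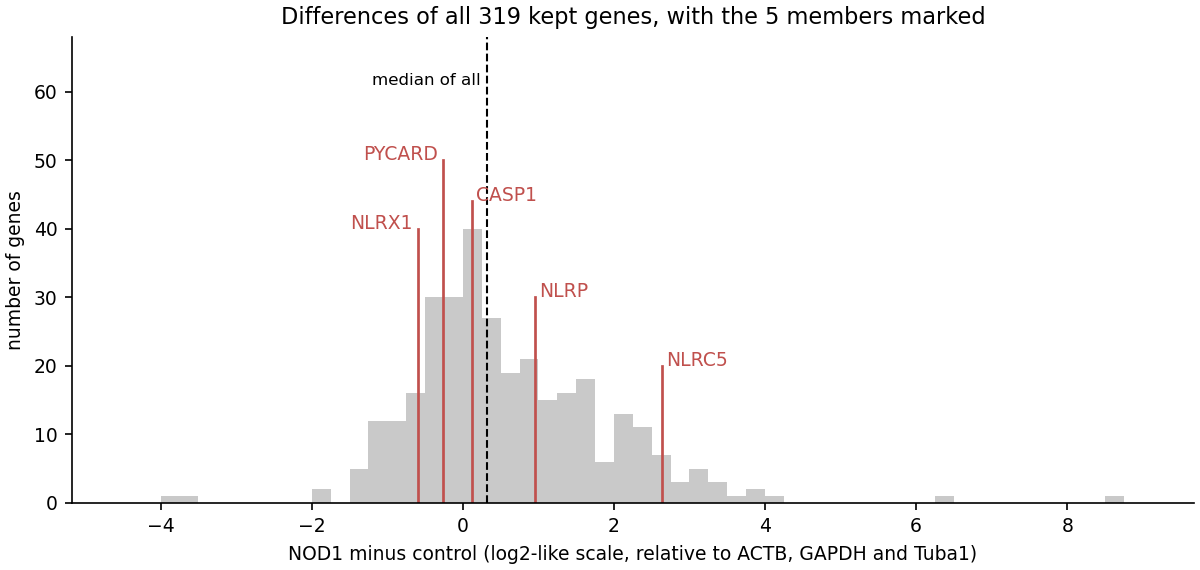
Histogram of the difference NOD1 minus control (log2-like scale, bins of 0.25) for all 319 kept genes, with the 5 members marked by red lines whose heights have no meaning and the median of all genes, 0.32, as a dashed line. NLRC5 lies in the upper tail, NLRP above the median, and CASP1, PYCARD and NLRX1 below it.

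Because the reference genes were later in NOD1 plates, differences were also set against the median of all genes, 0.32 with these references. On that footing NLRC5 was 2.32 and NLRP 0.64 above the median, and CASP1 was 0.20, PYCARD 0.58 and NLRX1 0.92 below it. These offsets are the same under every scaling that moves all wells of a plate alike. The median of all genes itself ranged from -0.34 on raw Ct to 0.80 with 18S rRNA added to the references. Under quantile scaling, which does not move wells alike, NLRC5 was 1.69 above the median and NLRP 0.28, PYCARD 0.35, CASP1 0.65 and NLRX1 0.69 below it. NLRP thus changed sides, as it did under cyclic loess, at 0.29 below.

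The count of members called followed the scaling, as it did for the plate as a whole. With 18S rRNA added, 3 members were higher and 0 lower, where 61.1% and 5.64% of all genes were. GAPDH alone gave 2 and 0 (39.8% and 8.15% of all genes), and ACTB alone gave 2 and 2 (32.0% and 22.6%). The global median gave 1 and 2 (25.4% and 35.4%), the global mean 1 and 2 (23.8% and 43.9%) and raw Ct 1 and 2 (22.3% and 42.0%). Quantile scaling also gave 1 and 2 (18.5% and 24.5%), and cyclic loess 1 and 1 (20.7% and 22.6%). NLRC5 was the member called higher in every one of these. The members called lower were NLRX1 and PYCARD with ACTB alone, the global median, the global mean and raw Ct, NLRX1 and CASP1 with quantile scaling, and NLRX1 with cyclic loess. NLRC5 was smallest with quantile scaling, at 1.60 (adjusted p = 0.0118).

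**Figure D3:**
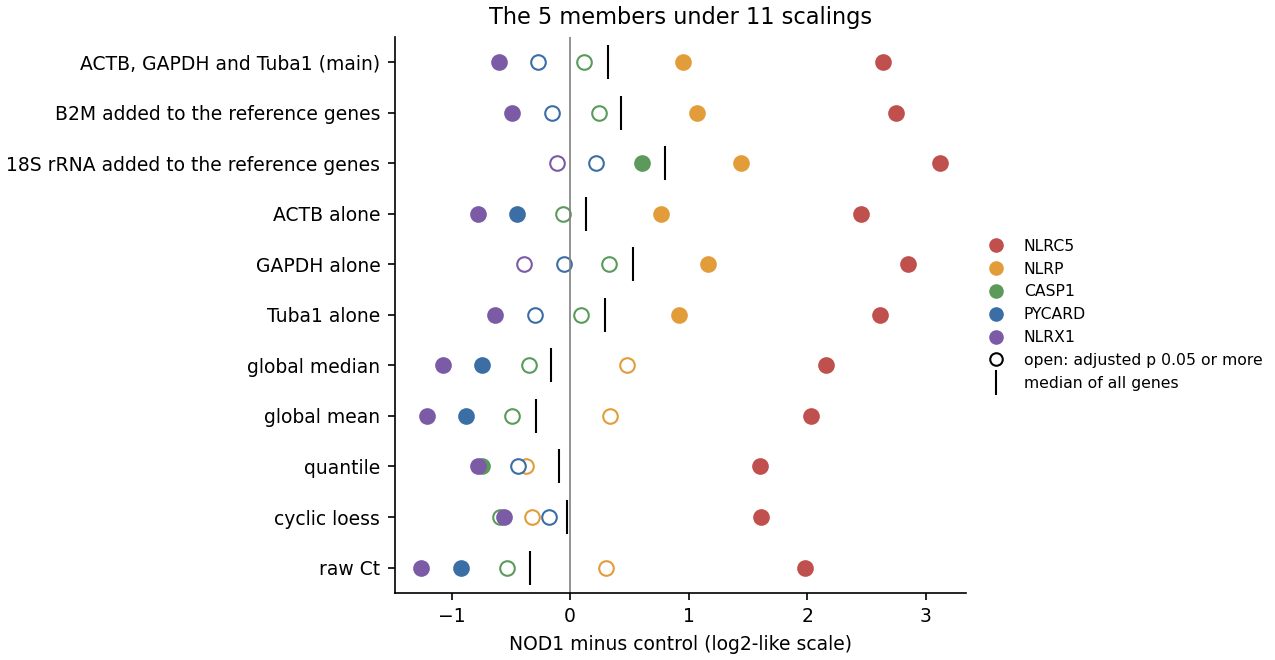
Difference NOD1 minus control (log2-like scale) of the 5 genes under 11 ways of scaling the plates, 1 row each; filled points passed an adjusted p of 0.05 and open points did not, and the black bar is the median of all genes. NLRC5 stays far right in every row, NLRX1 stays left of 0 but is open with 18S rRNA added and with GAPDH alone, and NLRP crosses 0 in the quantile and cyclic loess rows.

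Comparing 2 members within a plate takes the reference genes out of the comparison. For each of the 10 pairs, the level of one gene minus that of the other was set between the groups. The exact permutation test used for this cannot go below p = 0.1 here, so no pair can pass. After adjustment over the 10 pairs, the lowest exact permutation p reached was 0.125. The groups did not overlap for 8 of the 10 pairs, beside 63.9% of all 50721 pairs of kept genes. Levels of different assays are not compared, since amplification efficiency and product length are not known for these assays. What is compared is how far the gap between 2 assays shifted. Quantile and cyclic loess scaling do not move wells alike. Under each of them 4 of the 10 pairs, those with NLRC5, kept separate groups. CASP1 minus PYCARD turned negative under both, and NLRP minus PYCARD and CASP1 minus NLRX1 under cyclic loess.

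The widest shift was that of NLRC5 against NLRX1. The gap was -1.46, -1.92 and -2.05 in NOD1 plates and -5.19, -4.92 and -5.03 in control plates, a shift of 3.24 ± 0.195 (SE) or 9.43-fold (exact permutation p = 0.1, adjusted 0.125). NLRC5 against CASP1 gave gaps of 0.42, 0.09 and 0.13 in NOD1 and -2.34, -2.32 and -2.24 in control, the tightest control spread of the 10 pairs. That shift was 2.52 ± 0.110. NLRC5 against PYCARD shifted by 2.90 ± 0.338 and NLRC5 against NLRP by 1.68 ± 0.360. In each of these 4 pairs the NOD1 plates all lay above the control plates.

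NLRP against NLRX1 had gaps of -4.11, -4.07 and -4.09 in NOD1 and -5.22, -6.01 and -5.69 in control, a shift of 1.55 ± 0.229. The groups were separate, but overlapped with quantile (0.411) and cyclic loess (0.249) scaling. NLRP shifted by 1.22 ± 0.281 against PYCARD, and by 0.074 and -0.133 under those scalings. Against CASP1 it shifted by 0.83 ± 0.313, and by 0.372 and 0.277 under them. CASP1 shifted by 0.72 ± 0.115 against NLRX1, with gaps of -1.88, -2.01 and -2.18 in NOD1 and -2.84, -2.59 and -2.79 in control. That shift was 0.039 with quantile and -0.028 with cyclic loess scaling.

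The assays PYCARD and CASP1, named for adaptor and protease of one complex, gave 1 of the 2 pairs whose groups overlapped. CASP1 minus PYCARD was -4.55, -5.08 and -5.13 in NOD1 and -5.55, -5.31 and -5.06 in control. The shift was 0.39 ± 0.234 (exact permutation p = 0.3, adjusted 0.3). PYCARD minus NLRX1 was the other, at 2.66, 3.07 and 2.95 in NOD1 and 2.71, 2.71 and 2.27 in control, a shift of 0.33 ± 0.191 (exact permutation p = 0.3, adjusted 0.3). The groups thus overlapped for this pair, although NLRX1 passed the test against the references and PYCARD did not. The shift stayed above 0 with any 1 plate left out (0.186 to 0.449) and with quantile (0.337) and cyclic loess (0.382) scaling. With 3 plates a group, the test cannot decide whether PYCARD and NLRX1 shifted by different amounts.

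**Figure D4:**
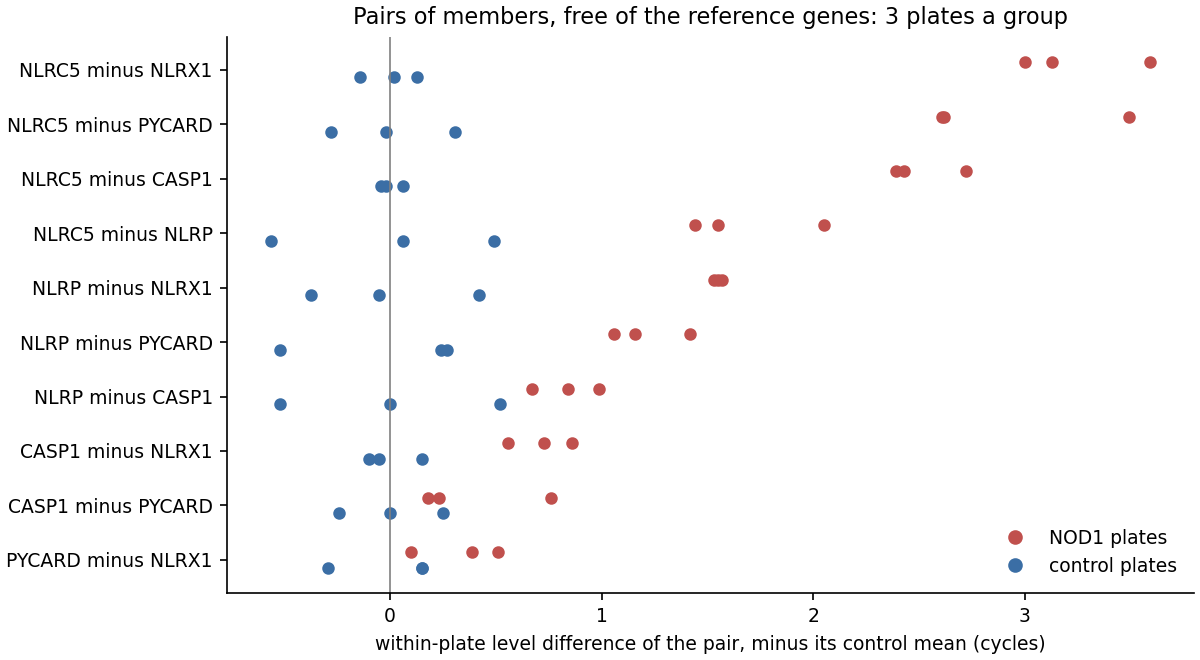
Within-plate level difference of each of the 10 pairs of members, minus the control mean of that pair, in cycles; red points above are the 3 NOD1 plates and blue points below the 3 control plates. The 4 pairs with NLRC5 fill the top rows with NOD1 shifts of 1.68 to 3.24, and the red and blue points overlap in the bottom 2 rows, CASP1 minus PYCARD and PYCARD minus NLRX1.

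Genes of the inflammasome itself are few on this array. Of a list of 30 inflammasome genes beside the 5 members, 2 are on the plate by symbol, IL1B and CASP8. A well with the symbol CRYO, matched to no gene, is not counted. IL1B, the cytokine whose precursor caspase-1 cleaves, had relative levels of -8.47, -8.11 and -8.06 in NOD1 plates and -9.89, -9.41 and -10.18 in control plates, and rose by 1.62 ± 0.24 (SE; limma adjusted p = 0.00348). All NOD1 plates were higher. CASP8, an apical caspase of cell death pathways, differed by 0.57 ± 0.28 (adjusted p = 0.143), with the sign turned on raw Ct (-0.09) and with the global mean (-0.04), and passed as higher with 18S rRNA added (1.06, adjusted p = 0.013). Protein and its cleavage were not measured.

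The list of interferon-gamma signalling and antigen presentation genes had 12 members on the plate, of which 7 were higher, 1 was lower and 4 did not pass, with a median difference of 1.05. On the whole plate 37.0% were higher and 15.4% lower, and the median was 0.32. Adding 18S rRNA gave 9 higher and 0 lower (61.1% and 5.64% of all genes), and quantile scaling 4 and 3 (18.5% and 24.5%). Raw Ct gave 5 and 3 (22.3% and 42.0%), as did the global mean (23.8% and 43.9%). GBP1, an interferon-induced GTPase, was 3.29 ± 0.90 higher (limma adjusted p = 0.0248), a call lost without NOD1 replicate 1 (adjusted p = 0.0859), NOD1 replicate 2 (0.0826) or control replicate 2 (0.0583) and with quantile or cyclic loess scaling. Its fold of 9.77 became 17.2 without NOD1 replicate 3 and 6.07 without control replicate 2. The 2 interferon-gamma genes ifng1-1 and ifng1-2 were 3.22 ± 0.62 and 2.09 ± 0.20 higher (limma adjusted p = 0.00823 and 9.7e-04). For ifng1-1 the levels were -8.37, -8.84 and -9.02 in NOD1 and -11.47, -11.06 and -13.37 in control, and the fold was 9.31 over all plates and 5.73 without control replicate 3. Also called higher were the interferon regulatory factors IRF2 and IRF8 and the receptor chain CRFB17, at 1.13, 0.97 and 0.87. With raw Ct, the global mean or the global median, IRF8 and CRFB17 did not pass, nor did IRF8 with quantile (0.14) or cyclic loess (0.08) scaling.

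The kinase JAK2 fell by 0.37 ± 0.11 (limma adjusted p = 0.0374), a call lost without any 1 plate (adjusted p = 0.0564 to 0.139) and turned to 0.11 with 18S rRNA added. The JAK2 call was also lost with B2M added to the reference genes, with GAPDH alone and with cyclic loess scaling. B2M, the light chain of MHC class I and the 1 antigen presentation gene of the list on the plate, did not pass the test. Its levels were -9.42, -8.99 and -9.17 in NOD1 and -9.31, -8.56 and -8.34 in control, a difference of -0.46 ± 0.28 (limma adjusted p = 0.214). It passed as lower on raw Ct (-1.12, adjusted p = 0.0171), with the global mean, the global median, quantile and cyclic loess scaling, and without control replicate 1 (adjusted p = 0.0342). IRF1 differed by 0.088 (adjusted p = 0.721), and was called higher with 18S rRNA added (0.58) and lower on raw Ct (-0.57), with the global mean, quantile and cyclic loess scaling. JAK1 differed by 4.24 ± 3.45 (adjusted p = 0.332), and by 0.11 without control replicate 1, whose well was at the ceiling.

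A list drawn up around MAVS, TRAF and autophagy partners of NLRX1 had 10 genes on the plate. It also holds RNA sensors, kinases and transcription factors, so its counts do not describe such partners alone. Of the 10 genes, 6 were higher, 1 was lower and 3 did not pass, with a median of 1.15. Over all genes, 37.0% were higher and 15.4% lower, with a median of 0.32. The autophagy genes of this list were not found on the plate by symbol, so the counts do not cover them. Adding 18S rRNA gave 6 higher and 0 lower (61.1% and 5.64% of all genes), and quantile scaling 3 and 3 (18.5% and 24.5%). Raw Ct gave 3 and 4 (22.3% and 42.0%), as did the global mean (23.8% and 43.9%). The higher ones were the RNA sensors RIG-I, LGP2 and IFIH1, the kinase TBK1, the mitochondrial adaptor MAVS and the transcription factor IRF3, by 2.32, 1.73, 1.21, 1.61, 1.18 and 1.11 on the log2 scale (limma adjusted p = 0.00151 to 0.0223). IFIH1 and IRF3 turned to -0.04 and -0.19 with quantile and to -0.30 and -0.08 with cyclic loess scaling, and neither passed on raw Ct, with the global mean or with the global median. LGP2 was 0.47 with quantile scaling and did not pass. The IFIH1 call was lost without NOD1 replicate 2 (adjusted p = 0.0527), and that of IRF3 without NOD1 replicate 2 (0.0627), control replicate 1 (0.0572) or control replicate 3 (0.0631). MAVS, the protein NLRX1 is reported to restrain in mammals, was 2.26-fold higher, though not past the threshold on raw Ct or with the global mean. The kinase IKBKE fell by 0.82 ± 0.22 (limma adjusted p = 0.0225), a call lost without control replicate 1 (0.0534), 2 (0.0586) or 3 (0.0721) and with 18S rRNA added or GAPDH alone. TRAF6 and TRAF3, adaptors of Toll-like and RIG-I-like receptor signals, differed by -0.14 and -0.36 (adjusted p = 0.460 and 0.0783), and IRF7 by -0.14 (adjusted p = 0.582). All 3 passed as lower on raw Ct, with the global mean and with the global median, and TRAF3 and IRF7 also with quantile and cyclic loess scaling. TRAF3 also did with ACTB alone.

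Among 6 genes of the NOD receptors and their relay, nod1 itself and NOD2 were higher and RIPK2, RIPK1 and IKBKG were lower, beside 37.0% higher and 15.4% lower over all genes. Raw Ct gave 2 higher and 4 lower (22.3% and 42.0% of all genes), and adding 18S rRNA gave 3 and 1 (61.1% and 5.64%). These counts include nod1, the injected gene, whose higher level the injection set in advance. The sister receptor NOD2 rose by 1.08, but differed by -0.09 with quantile scaling and did not pass with cyclic loess scaling. The kinases RIPK2, which binds NOD1, and RIPK1, and IKBKG, the scaffold of the kinase complex that activates NF-kappa-B, fell by 0.92, 0.74 and 0.42 (limma adjusted p = 0.00387, 0.00671 and 0.0455). The IKBKG call was lost without any 1 plate other than NOD1 replicate 2, and with 18S rRNA added the difference was 0.07. That call was lost as well with B2M added to the reference genes and with GAPDH alone. The RIPK1 call was also lost with 18S rRNA added. BIRC2, an inhibitor of apoptosis protein gene, differed by 0.0085 (adjusted p = 0.959), and passed as higher with 18S rRNA added (0.50) and as lower on raw Ct (-0.65), with the global mean and with the global median.

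**Figure D5:**
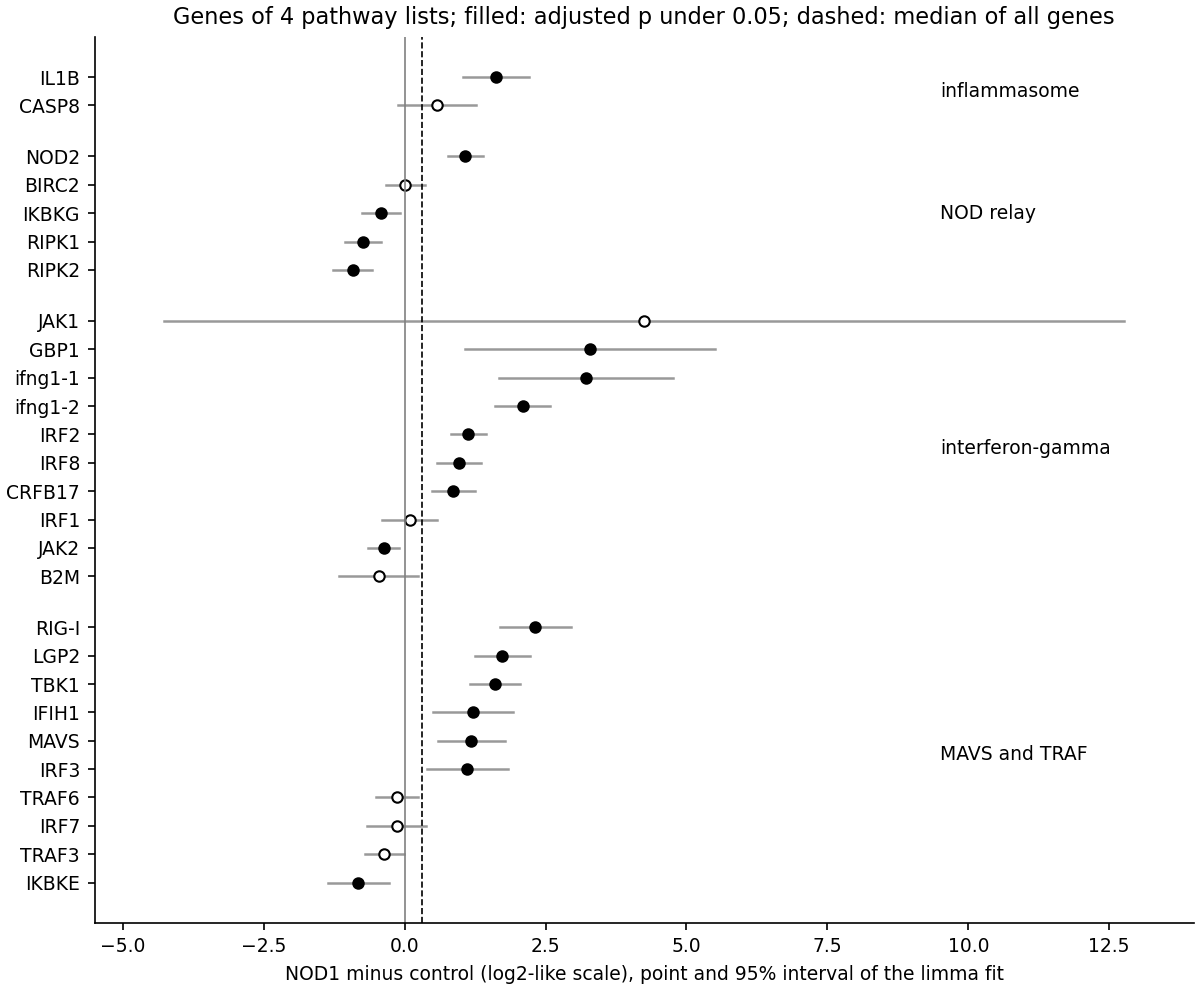
Difference NOD1 minus control (log2-like scale) with its 95% interval from the limma fit for genes of the 4 pathway lists. The members, nod1 and list genes not reported here are left out. Filled points passed an adjusted p of 0.05, and the dashed line is the median of all genes. The interval of JAK1, from -4.272 to 12.754, is the widest, and B2M and IRF1 are open points among higher interferon-gamma genes.

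The genes with the most similar profile to each member were found by the root mean square distance between the 6 relative levels, each gene centred on its own mean. NLRC5 was closest to PGRP6, a peptidoglycan recognition protein gene (distance 0.236, difference 2.61), and to BIRC6, an inhibitor of apoptosis family gene (0.282, 2.45). NLRX1 was closest to the co-chaperone gene BAG3 (0.109, -0.44) and the survival gene BCL2 (0.132, -0.50). NLRP was closest to IFIH1 (0.197, 1.21) and IRF8 (0.205, 0.97), PYCARD to the adaptor gene TRAF3 (0.090, -0.36), and CASP1 to IRF2BP2a (0.154, 0.012) and the chemokine CXCL14 (0.155, 0.27). Among the 5 members, the distance of CASP1 to PYCARD was 0.304, that of PYCARD to NLRX1 0.254, that of NLRP to CASP1 0.521 and that of NLRC5 to NLRP 0.916.

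NLR and inflammasome genes are known from leukocytes among other cells. Of the 15 myeloid markers listed, 4 are on the plate. Of these, SPI1 and CEBPB differed by 0.81 and 1.48, called higher, and CSF1R by -1.17, called lower. CSF2RB, also called lower, differed by -1.84. CSF2RB passed the filter on late genes through the control group alone, where it is high, so its difference is given as a description. Its well of NOD1 replicate 2 was at the ceiling. Its call was lost without any 1 plate other than NOD1 replicate 3 and with 18S rRNA added or GAPDH alone, and its fold of 0.28 was 0.176 without NOD1 replicate 3. That of SPI1 was lost without control replicate 3 (adjusted p = 0.0507), on raw Ct (0.16), and with the global mean (0.20), the global median (0.34) and quantile scaling (0.62). Their summed level, in which SPI1 weighs most, as 2 to the power of the relative level, was 0.0102 to 0.0142 in NOD1 and 0.00822 to 0.00912 in control plates. Of 11 lymphoid markers, the 3 on the plate, CCR7, CCR9b and IL7R, differed by 3.09, 2.71 and 2.35, with sums of 0.00206 to 0.00316 in NOD1 and 3.26e-04 to 5.3e-04 in control, and 2 control wells of CCR9b were at the ceiling. CCR9b passed the filter through the NOD1 group alone, where it is high, so its difference is given as a description. With quantile and cyclic loess scaling neither IL7R (1.15 and 1.23) nor CCR9b (0.79 and 0.71) passed. Whether lymphoid cells were present in whole embryos of this age was not tested. The values of CCR7, CCR9b and IL7R are therefore given as transcript levels and do not show a change in lymphoid cells. EPOR, the 1 of 5 erythroid markers on the plate, was lower, at 0.00144 to 0.00168 in NOD1 and 0.00266 to 0.00358 in control, and the plate has 0 of the 6 endothelial markers listed. The part of these shifts in the results for the 5 genes was not tested.

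The authors' deposited table gives folds of NOD1 over control of 6.22 for NLRC5, 0.66 for NLRX1, 1.94 for NLRP, 0.831 for PYCARD and 1.09 for CASP1. Its unadjusted p-values are 6.34e-04, 0.00392, 0.0222, 0.0738 and 0.516. After Benjamini-Hochberg adjustment over the 319 genes, the p from the authors' deposited table is 0.0492 for NLRP, just under the threshold.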

How the data were processed

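SYBR Green real-time PCR was run on 6 array plates of 336 wells, 3 per group. Per the file headers, the deposited Ct values, used here as a score per well, are raw readings of SDS 2.3 with a manual threshold of 0.2. The authors' table holds each group's mean delta Ct (log2-like), a ratio or fold of NOD1 over control and a p-value whose header names a t-test. Its delta Ct was recomputed for 326 of 326 genes within 1e-06 cycles.

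Here Ct values over 35 or undetermined were set to 35 and scaled to the plate mean of ACTB, GAPDH and Tuba1. A gene was kept if every plate of the NOD1 or of the control group had a Ct under 35 (319; 7 dropped). Groups were compared with limma 3.58.1 in R 4.3.3 (lmFit, eBayes, two-sided, Benjamini-Hochberg over 319 genes). Pairs of members used exact permutation tests. SE of a pair shift comes from the SDs of both groups. The members and lists were chosen with earlier results of these data known. Named genes are the 5 members, the references, nod1, the 2 most similar genes of each member and, from each list, up to 3 past the threshold in each direction and those whose role bears on a member; the other list genes were named after their values were seen. Some genes that this rule selects are not reported here. List genes were matched by symbol, so one under another name is missed. The fit was tested on simulated data with independent noise. These data held no shift of a plate or run day, so the test does not cover such shifts. Alternatives covered 10 other scalings, the ceiling, the filter, a trend, blocks and left-out plates. Sequences of the assays were not used here.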

Additional observations from a re-analysis of the deposited data

How the results depend on the processing

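NLRC5 was higher and past the threshold under all 23 alternatives (1.599 to 3.124 on the log2 scale). The ceiling, filter, trend, replicate block and authors' p-value alternatives could change only the p-values of the members, not their differences. NLRX1 was lower under all 23 but did not pass with 18S rRNA added (-0.113, adjusted p = 0.493) or GAPDH alone (-0.389, adjusted p = 0.0845). NLRP was higher but did not pass on raw Ct (0.298), with the global mean (0.344) or the global median (0.479), and was -0.368 with quantile and -0.316 with cyclic loess scaling; leaving out a plate gave 0.723 to 1.159. PYCARD passed as lower on raw Ct (-0.922), with ACTB alone (-0.450), the global mean (-0.876) and the global median (-0.740), and was 0.221 with 18S rRNA added. CASP1 was -0.534 on raw Ct, -0.063 with ACTB alone, -0.353 and -0.488 with the global median and mean, -0.740 with quantile (adjusted p = 0.0479) and -0.593 with cyclic loess scaling, was 0.608 with 18S rRNA added (adjusted p = 0.0289), and ran from -0.033 to 0.238 with a plate left out. The members called higher numbered 1 on raw Ct, with the global mean, the global median, quantile and cyclic loess scaling, and 1 to 2 with a plate left out; those called lower numbered 2 on raw Ct, with ACTB alone, the global mean, the global median and quantile scaling, and 0 with 18S rRNA added and GAPDH alone. Of the pair shifts, CASP1 minus PYCARD was -0.298 with quantile scaling, and with cyclic loess scaling NLRP minus PYCARD was -0.133, CASP1 minus PYCARD -0.410 and CASP1 minus NLRX1 -0.028. Over all genes, 118 were called higher and 49 lower, against 195 and 18 with 18S rRNA added, 127 and 26 with GAPDH alone, 76 and 140 with the global mean, 81 and 113 with the global median, 59 and 78 with quantile scaling, 66 and 72 with cyclic loess scaling and 71 and 134 on raw Ct; leaving out a plate gave 96 to 113 higher and 31 to 45 lower. The cause of these changes was not tested. The replicate numbers did not pair the plates (correlations of 0.113, 0.031 and -0.022 between same-numbered plates), and with the replicate block NLRC5 was 2.637 (adjusted p = 0.00702), with 111 genes higher and 40 lower on the plate against 118 and 49. With the run day as a random block, whose estimated correlation was -0.335, no member's call changed. Each run day held plates of 1 group only, so this block cannot separate the day from the group. It gave 141 genes higher and 71 lower, against 118 and 49 without it. Of the list genes named, CASP8 passed as higher and TRAF3 as lower with it (limma adjusted p = 0.0485 and 0.0159). The replicate block likewise changed no member's call; of the other genes named, CASP8 passed with it (adjusted p = 0.0427), and the calls of GBP1 (0.0549), IRF3 (0.054), JAK2 (0.097) and IKBKG (0.109) were lost. With 3 plates per group, the exact tests cannot go below p = 0.1.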

Other observations

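The well next to CASP1 on the plate carries the symbol CRYO, which found no match in the RefSeq table, so that whether it is an inflammasome gene is not settled here. It was singled out after its values were seen. Its relative levels were -9.68, -10.16 and -10.00 in NOD1 plates and -10.07, -17.25 and -10.72 in control plates. Control replicate 2 stood apart, at the ceiling of 35 cycles, and the difference of 2.73 ± 1.91 (SE) did not pass (limma adjusted p = 0.268).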
